A study of Mus musculus with 2 samples.

Results

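The 45 genes described here lie on either side of Gnmt on mouse chromosome 17, 32 on one side and 13 on the other in the gene order of RefSeq assembly GRCm38.p6. They were taken from a list of neighbours of the targeted gene, and a gene counted as present when a probe set carried its symbol alone. Of the 45, 43 had such a probe set, out of 18193 genes named in this way on the array, and they were covered by 86 probe sets. Bicral appeared under that symbol. Trerf1 was not named by any probe set used here, and Tomm6 only by probe sets that also name Prickle4. The rule itself uses no measured value, but the list was drawn up with earlier results of these data known.

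Transcript levels were measured in cerebral cortex on 2 Affymetrix arrays. One array held a pool of equal RNA amounts of 3 males of 4 weeks titled as wild-type. The other held such a pool of 3 males of the same age titled as knockouts of Gnmt. Both carry the strain label 129/B6. The genotype field of the second sample reads wild-type, so that pool is called KO-titled throughout, and how the allele was made was not looked at here. With 1 array per group no difference could be tested, and each ratio compares these 2 pools and not the genotypes. In RNA of whole tissue, fewer cells of a type and less RNA per cell cannot be told apart.

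Gnmt encodes glycine N-methyltransferase, which uses S-adenosylmethionine to methylate glycine. When a gene is altered in embryonic stem cells of one strain and the line is then bred with another strain, DNA next to the altered gene is inherited with it. Such passenger DNA can differ from that of control animals in the sequence of the neighbouring genes and in their expression, and a sequence difference under an array probe can alter the signal without a change in transcript level. Genotypes and probe sequences were not analysed here, so transcript level and probe binding cannot be told apart for any member.

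The gene-dense interval holds several pairs of members that start close together and are read away from each other, and these pairs show how far adjacent genes differed on the arrays. In the promoter windows of RefSeq (GRCm38.p6, 250 bases before to 50 after each start), 41 members had 58 windows, and 4 pairs of members on opposite strands had starts at most 1000 bases apart. The window of the plus-strand gene of each pair is shown, together with the first listed window of Cul9 and of Ubr2. These 2 are ubiquitin ligase genes whose brightest probe sets were over 2-fold higher in the KO-titled pool. For Ubr2 this held for 1 of 3 measured probe sets. Capitals mark matches on either strand to 5 motifs: TATAAA, known as the TATA box; the CCAAT box, searched by those letters; GGGCGG, the GC box; the cyclic AMP response element, TGACGTCA; and CACGTG, an E-box. No letter of these windows belongs to more than 1 match.
Mea1, plus strand, chr17:46680736-46681035: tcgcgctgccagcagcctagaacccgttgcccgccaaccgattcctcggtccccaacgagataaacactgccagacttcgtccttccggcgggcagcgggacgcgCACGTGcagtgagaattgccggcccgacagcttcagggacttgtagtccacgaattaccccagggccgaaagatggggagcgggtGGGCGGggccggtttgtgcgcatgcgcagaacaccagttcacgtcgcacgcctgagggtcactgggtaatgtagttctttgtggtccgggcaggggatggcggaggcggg
Med20, plus strand, chr17:47611335-47611634: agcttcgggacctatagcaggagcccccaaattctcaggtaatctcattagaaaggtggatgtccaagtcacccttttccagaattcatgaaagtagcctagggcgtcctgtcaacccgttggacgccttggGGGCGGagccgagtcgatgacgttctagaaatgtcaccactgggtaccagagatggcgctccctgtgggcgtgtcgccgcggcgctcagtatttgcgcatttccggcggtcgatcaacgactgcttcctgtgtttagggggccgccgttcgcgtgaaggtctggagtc
Yipf3, plus strand, chr17:46247830-46248129: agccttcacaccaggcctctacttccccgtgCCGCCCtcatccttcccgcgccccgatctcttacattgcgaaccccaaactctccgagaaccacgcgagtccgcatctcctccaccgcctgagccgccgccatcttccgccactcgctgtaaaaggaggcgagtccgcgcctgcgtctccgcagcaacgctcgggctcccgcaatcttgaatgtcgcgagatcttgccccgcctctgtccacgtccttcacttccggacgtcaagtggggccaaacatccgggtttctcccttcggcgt
Xpo5, plus strand, chr17:46202561-46202860: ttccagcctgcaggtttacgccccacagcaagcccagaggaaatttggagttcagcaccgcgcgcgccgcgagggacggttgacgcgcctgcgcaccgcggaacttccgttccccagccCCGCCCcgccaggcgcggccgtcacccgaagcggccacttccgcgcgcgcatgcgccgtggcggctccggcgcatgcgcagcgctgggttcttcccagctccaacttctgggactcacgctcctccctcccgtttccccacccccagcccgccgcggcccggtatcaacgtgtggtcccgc
Cul9, minus strand, chr17:46546339-46546638: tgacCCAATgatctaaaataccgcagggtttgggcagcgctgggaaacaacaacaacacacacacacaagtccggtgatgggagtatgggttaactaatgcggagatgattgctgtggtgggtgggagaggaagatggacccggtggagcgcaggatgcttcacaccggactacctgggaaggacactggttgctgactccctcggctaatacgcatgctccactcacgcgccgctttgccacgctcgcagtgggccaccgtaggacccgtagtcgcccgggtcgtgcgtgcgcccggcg
Ubr2, minus strand, chr17:47010483-47010782: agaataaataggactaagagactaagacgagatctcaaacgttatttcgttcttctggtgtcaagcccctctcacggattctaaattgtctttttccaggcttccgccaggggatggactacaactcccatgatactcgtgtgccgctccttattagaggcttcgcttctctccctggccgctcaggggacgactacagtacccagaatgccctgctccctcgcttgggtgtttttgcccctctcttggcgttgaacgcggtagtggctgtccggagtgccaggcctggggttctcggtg

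The windows of the 4 pairs each held 1 GC box, the binding sequence of Sp1-type factors, and that of Mea1 also held an E-box. The Cul9 window held 1 CCAAT box and the Ubr2 window none of the motifs. A GC box stood in 72.4% of the 58 member windows and in 35.7% of all 32851 RefSeq windows. The member windows were also richer in G and C, with a median of 59.5% against 52.7% over all windows. The part of base content in the GC box share was not tested. A CCAAT box stood in 31.0% and 37.4%, a TATA box in 6.90% and 13.6%, an E-box in 10.3% and 7.15%, and a cyclic AMP response element in 1.72% and 1.79%. Some genes have several overlapping windows, and a match describes the letters alone.

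Mea1 and Klhdc3 start 56 bases apart and differed most of the 4 pairs. Mea1, first described as an antigen of the testis, had a signal of 1924.3 units in wild type and of 555.7 in the KO-titled pool. The log2 ratio of the KO-titled over the wild-type signal, centred on the median of all measured probe sets, was -1.80. Klhdc3, a substrate receptor of a cullin ubiquitin ligase, gave 10570 and 9867 units, a log2 ratio of -0.11. The low ratio of Mea1 therefore had no counterpart in the gene that shares its start region. Bysl, needed to assemble the small ribosomal subunit, and Med20, a Mediator subunit, start 93 bases apart and had ratios of -0.65 and 0.23. Polr1c, a subunit shared by RNA polymerases I and III, and Yipf3, a Golgi membrane protein gene, start 35 bases apart, with -0.18 and -0.35; a second Yipf3 probe set was above the floor only in wild type, at 130.3 against 31.1 units, at least 2.05-fold lower. Polh, a DNA polymerase that copies past damaged bases, and Xpo5, the exporter of microRNA precursors, start 170 bases apart, with 0.14 and 0.35. The 2 latter pairs differed by -0.17 and 0.21 on the log2 scale (plus-strand gene minus minus-strand gene), within the error between probe sets. Bysl and Med20 differed by 0.88, but the second Bysl probe set had a ratio of -0.18. A difference between 2 genes carries the error between probe sets of both.

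That error is the only one these files give. It was taken from pairs, as the SD of the difference between a gene's brightest and second brightest probe set over the square root of 2, and came to 0.58 on the log2 scale, or 1.49-fold, over 5375 genes. The 18 members with 2 or more measured probe sets gave 0.38. A 1.5-fold ratio of 1 probe set is thus about 1 SD of this error, which leaves out the spread between mice. A probe set counted as measured when its signal reached a floor of 64.2 units on both arrays, the 40th percentile of all signals, and a gene was represented by its brightest measured probe set.

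Of the 86 probe sets of the members, 65 were measured on both arrays, 5 passed the floor in wild type alone, 5 in the KO-titled pool alone and 11 in neither. Of the 45 genes, 37 were measured on both arrays. Of these, 4 were higher in the KO-titled pool by 1.5-fold or more, 9 were lower by as much and 24 lay between. Among all 12251 measured genes, 12.5% were that much higher and 18.3% that much lower, against 10.8% and 24.3% of the members. The 1.5-fold counts of the members were thus near those of all genes. At 2-fold, 8 members were apart, or 21.6%, against 10.2% of all genes; 4 were higher, against 3.47% of all genes, and 4 lower, against 6.74%. This count was 5 of 37 with quantile normalization, against 10.7% of all genes, and 5 of 37 with the median over probe sets, against 9.64%. Cul9, Taf8 and Zfp318 left the count with quantile normalization, and Slc35b2, Zfp318 and Ubr2 with the median. The median log2 ratio of the members was -0.11, with an SD of 0.67 between genes. It was -0.060 with an SD of 0.64 over all genes, and -0.11 with 0.67 over the 514 other measured genes of chromosome 17.

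**Figure D1:**
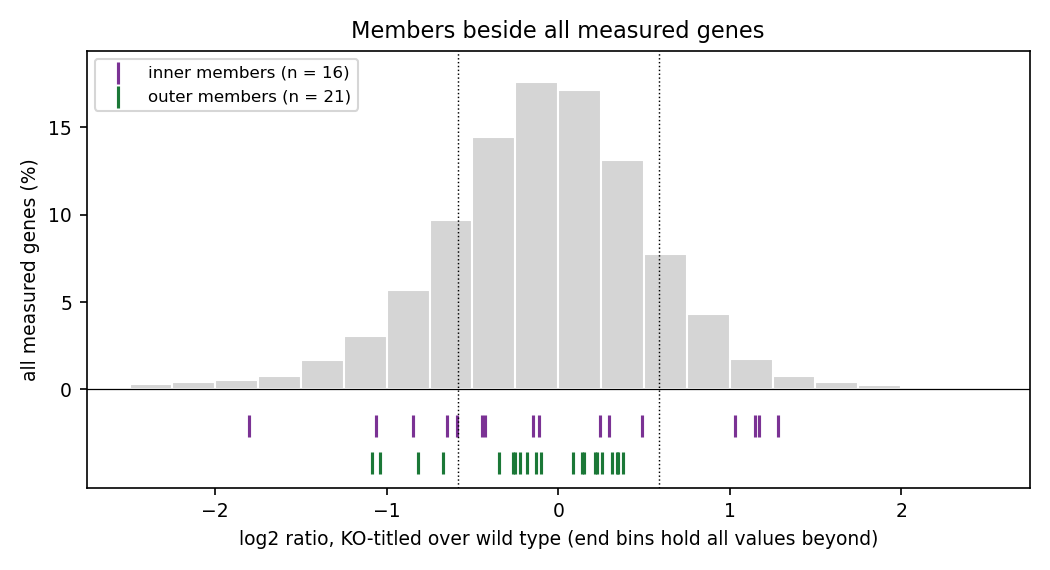
Bars give the share of all 12251 measured genes in each bin of the log2 ratio of KO-titled over wild-type signal, and ticks below give the 16 inner and 21 outer members, inner meaning among the 10 members nearest to Gnmt on either side; dotted lines mark 1.5-fold. The members lie on both sides of 0, and the 4 members that were 1.5-fold higher are all inner members.

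By brightest probe sets, a larger share of the 10 members nearest to Gnmt on either side than of the other members was 1.5-fold apart. The 10 members nearest to Gnmt on either side, 20 together, are called inner members, and 16 of them were measured. Counted in genes from Gnmt, they reach from Ttbk1 at -15 to Bysl at 23. They are thus not the 20 nearest of all, since the outer member Zfp318, at -21, is nearer than Bysl. Of these, 4 were at least 1.5-fold higher and 5 at least 1.5-fold lower, together 56.2%, against 30.7% of all genes. Of the 21 measured outer members, 0 were that much higher and 4 that much lower, together 19.0%. At 2-fold the counts were 6 of 16 and 2 of 21, against 10.2% of all genes. Under quantile normalization these were 4 of 16 and 1 of 21, against 10.7%. A floor at the 60th percentile gave 3 of 13 and 1 of 16, against 8.26%. Nearness is mixed with side, since 19 of the 21 outer members lie on the lower side of Gnmt. Of all measured members, 28.6% on the lower and 55.6% on the upper side were 1.5-fold apart. Within the lower side these were 4 of 9 inner and 4 of 19 outer members, and on the upper side 5 of 7 inner members and neither of the 2 outer ones. The medians of the inner and outer members were -0.13 and -0.10. They were 0.052 and -0.16 with quantile normalization and -0.43 and -0.22 without suffixed probe sets. The SD of the log2 ratios was 0.90 over inner and 0.45 over outer members. With a floor at the 60th percentile, 5 of 13 inner and 3 of 16 outer members were 1.5-fold apart, against 28.2% of all genes. By second brightest probe sets these were 4 of 10 and 1 of 8, against 38.5% of all genes, so the inner share was then near that of all genes. The number 20 was chosen with earlier results of these data known, and no test supports the difference.

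**Figure D2:**
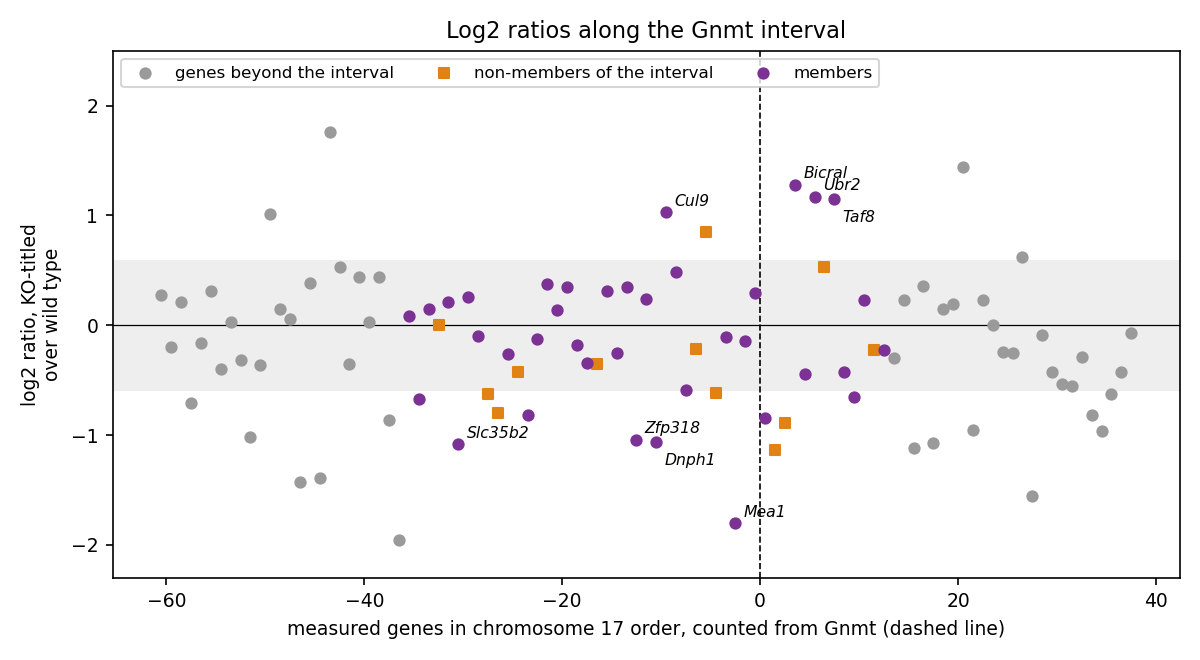
Log2 ratio of KO-titled over wild-type signal for measured genes in chromosome 17 order, counted from Gnmt at the dashed line, with members in purple, other genes of the interval in orange and the next 25 measured genes on either side in grey; the band marks ratios within 1.5-fold. Ratios above and below 0 occur on either side of Gnmt, with Mea1 at -1.80 and Bicral at 1.28 on opposite sides. The measured genes of the interval that were at least 1.5-fold higher all lie in the stretch from Cul9 to Taf8.

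Of the 4 members that were higher, 3 lie beyond Cnpy3 on the upper side. Bicral encodes a subunit of a SWI/SNF chromatin remodelling complex. Its signals were 573.8 units in wild type and 1405 in the KO-titled pool, 2.43-fold higher by its brightest probe set. Its second probe set went the same way, from 390.9 to 1084.5 units, a log2 ratio of 1.46. The third, from 108.1 to 70.8 units, went the other way at -0.62, so the higher signal of Bicral was not seen by all of its probe sets.

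Ubr2 encodes a ubiquitin ligase that recognises the first residue of its substrates. It gave 814.1 and 1848.8 units, 2.25-fold higher in the KO-titled pool. Its other measured probe sets had ratios of 0.026 (167.2 and 171.7 units) and -0.23 (161.7 and 138.9 units). The call of Ubr2 rests on 1 of 3 probe sets and is lost with their median, at 0.026.

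Taf8 encodes a subunit of TFIID, the complex that places RNA polymerase II at promoters. Its signals were 89.1 units in wild type and 199.3 in the KO-titled pool, 2.22-fold higher. A second Taf8 probe set was below the floor at 54.2 units in wild type and reached 71.6 in the other pool, at least 1.11-fold higher. The wild-type signals of Taf8 thus lay near or under the floor. With quantile normalization the ratio of Taf8 was 0.84, under 2-fold.

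Cul9, on the lower side, encodes a cullin scaffold that holds p53 in the cytoplasm. It gave 105.9 and 218.5 units, 2.05-fold higher, and its second probe set gave 66.6 and 153.7 units, a log2 ratio of 1.19. Both Cul9 probe sets were over 2-fold higher, from low wild-type signals. By its brightest probe set, Cul9 was under 2-fold higher with quantile normalization (0.75) and loess (0.91). It was also under 2-fold with a floor at the 25th percentile (0.99) or none (0.93). Its paralog Cul7, which is no member, lies between Cul9 and Gnmt and was also higher, with 543.8 and 988.8 units and a ratio of 0.85.

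Among the members that were lower, Mea1 had the lowest ratio, the 133rd lowest of all 12251 genes. It was 3.49-fold lower by its brightest probe set. The other gave 674.2 and 224.8 units, a ratio of -1.60. Both probe sets of Mea1 were thus over 2-fold lower, the only member besides Cul9 with every measured probe set over 2-fold apart among those with more than 1. Together with Klc4, 3 of the 18 members with several measured probe sets had all of them at least 1.5-fold apart in 1 direction, or 16.7%, against 10.5% of 5375 genes.

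Slc35b2, Dnph1 and Zfp318 were also over 2-fold lower in the KO-titled pool. Slc35b2 carries the sulfate donor PAPS into the Golgi; it gave 566.1 and 269.2 units, 2.12-fold lower, while its other probe set gave 111.9 and 95.5 units and a ratio of -0.24. Dnph1 removes the base from certain nucleotides; its 1 probe set gave 185.5 and 89.4 units, 2.09-fold lower. Zfp318, a nuclear zinc finger protein gene, gave 867 and 425 units, 2.06-fold lower. Of its 5 measured probe sets, 4 had ratios between -1.14 and -0.69. The remaining one, with 286.2 and 423 units, stood at 0.55, so the agreement of Zfp318 was not complete either.

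The other 5 lower members were between 1.5-fold and 1.80-fold lower. Cnpy3, next to Gnmt on the upper side, assists the folding of Toll-like receptors; its 1 probe set gave 639.3 and 358.5 units, 1.80-fold lower. Rsph9, of the radial spokes of motile cilia, gave 384.5 and 220.3 units, 1.76-fold lower. Aars2, the mitochondrial alanyl-tRNA synthetase gene, gave 295.1 and 186.4 units, 1.60-fold lower. Bysl gave 949.1 and 609.4 units, 1.57-fold lower, and its second probe set, with 445.4 and 396.7 units, had a ratio of -0.18. Klc4, a light chain of the motor protein kinesin, gave 569 and 381.5 units and a ratio of -0.59. Its second probe set, with 166.8 and 76.2 units, had -1.14. The ratios of Bysl and Klc4 lay close to the 1.5-fold line, and with quantile normalization Bysl was inside it at -0.57.

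**Figure D3:**
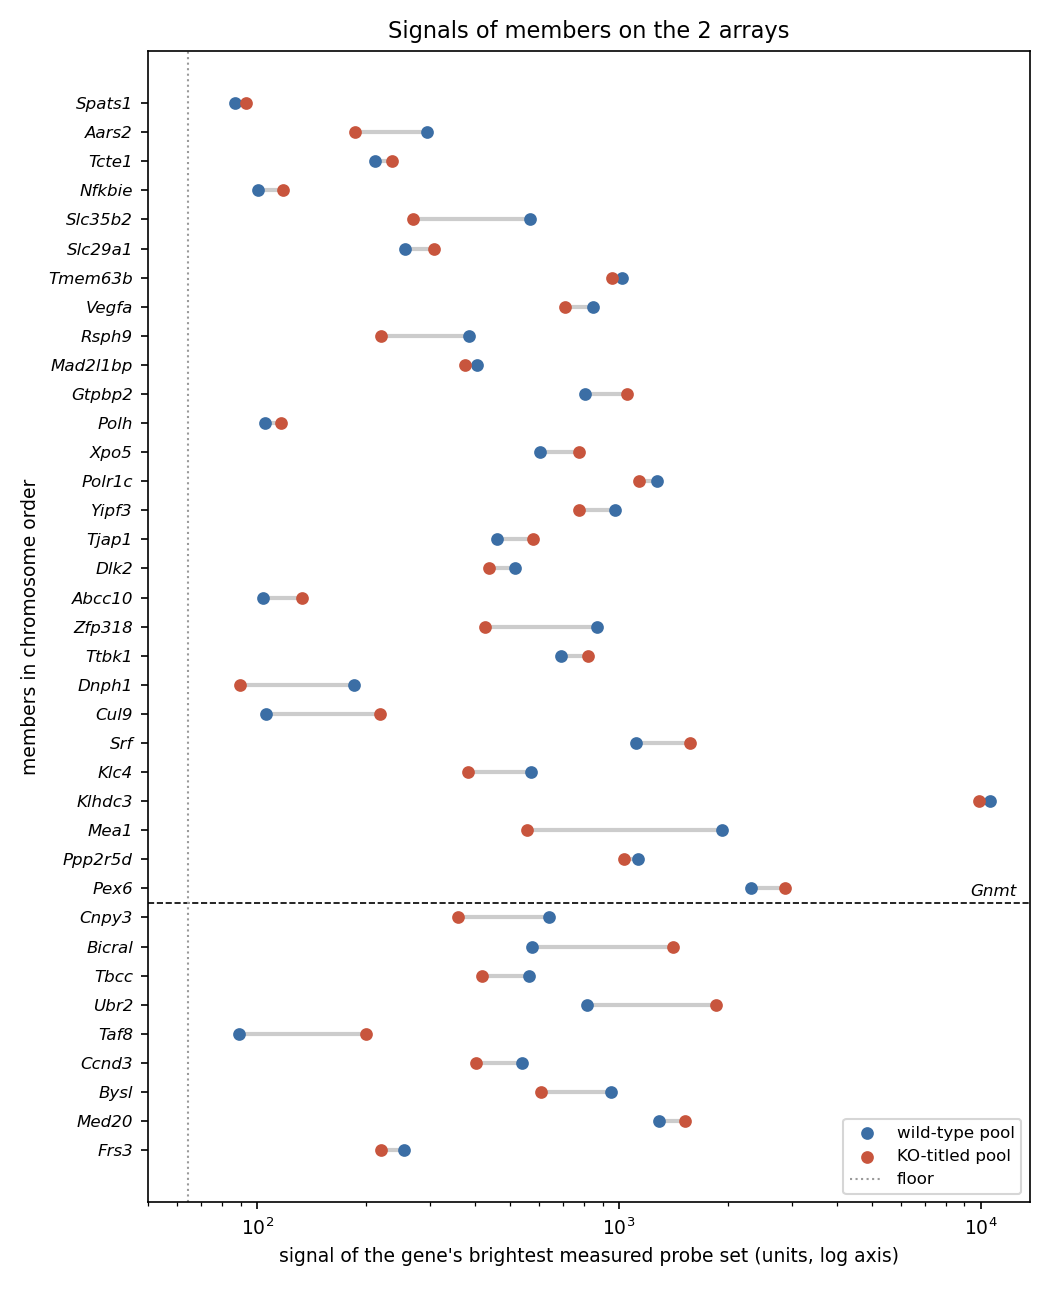
Signals of the brightest measured probe set of each of the 37 measured members in the wild-type pool (blue) and the KO-titled pool (red), on a log axis in chromosome order, with Gnmt at the dashed line and the floor dotted; signals of different genes come from different probes and are not compared. The widest gaps are those of Mea1, with 1924.3 and 555.7 units, and Bicral, with 573.8 and 1405 units.

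The remaining 24 measured members lay within 1.5-fold. Of all measured genes, 69.3% did so, and the counts by role are to be read against that share. All 6 measured signalling genes lay within 1.5-fold, between -0.26 and 0.24. They were Vegfa, the blood vessel growth factor; Frs3, an adaptor of fibroblast growth factor receptors; Dlk2, a Notch ligand-like protein; the tau kinase Ttbk1; Ppp2r5d, a regulatory subunit of phosphatase 2A; and Nfkbie, an inhibitor of NF-kappa-B. Vegfa gave 845 and 710.2 units, a ratio of -0.26. Its second probe set read 104.7 units in wild type and 5.7 units, below the floor, in the other pool, at least 1.64-fold lower. Nfkbie had 0.21 by the probe set measured in both pools, while its other one, with 78 and 58 units, passed the floor in wild type alone, at least 1.23-fold lower. Ppp2r5d, the second nearest member to Gnmt on the lower side, gave 1129.5 and 1028.3 units and a ratio of -0.15.

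Among the 6 measured genes of transcription and chromatin, 2 were higher, 1 was lower and 3 were within 1.5-fold. Srf, the serum response factor gene, gave 1112.2 and 1574.4 units by a probe set whose suffix marks possible binding to several transcripts, a ratio of 0.49. Its other probe set, with 278.8 and 196.9 units, had -0.51, so Srf had no single direction. Med20 gave 1290 and 1521.9 units, with both probe sets above 0, at 0.23 and 0.43. Polr1c had both below 0, at -0.18 and -0.30.

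Of the 6 genes of ubiquitin transfer, the cell cycle and DNA repair, 2 were higher, Cul9 and Ubr2, and 4 lay within 1.5-fold. Cyclin D3, encoded by Ccnd3, gave 537.2 and 403 units and a ratio of -0.43; its other probe sets passed the floor in a single pool each, giving bounds of 1.43-fold (lower) and 1.02-fold (higher). Mad2l1bp, which helps to end the spindle checkpoint, had -0.13. Klhdc3 had 3 measured probe sets between -0.22 and 0.059, while another passed the floor in 1 pool alone, with 32.2 units in the wild-type and 129.9 in the KO-titled pool, at least 2.01-fold higher. Of the 4 genes of RNA export, ribosomes and translation, Aars2 and Bysl were lower and Xpo5 and Gtpbp2, which acts on stalled ribosomes, were within 1.5-fold. Gtpbp2 had ratios of 0.38, 0.15 and -0.044 by its 3 measured probe sets. The 2 of Xpo5 had opposite signs, at 0.35 and -0.23.

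Of the 3 measured organelle genes 2 lay within 1.5-fold, and of the 4 transporters and channels 3. Pex6, the nearest member on the lower side, encodes an ATPase of peroxisome assembly. It had 5 measured probe sets between -0.41 and 0.65, and its brightest gave 2313.2 and 2867.7 units, a ratio of 0.30. Without suffixed probe sets the ratio of Pex6 turned to -0.40. Among the transporters, Slc35b2 was lower. The nucleoside transporter gene Slc29a1 had 0.25, the drug efflux pump gene Abcc10 had 0.35 (its other probe set, with 70.2 and 6.1 units, was at least 1.1-fold lower) and the mechanosensitive channel gene Tmem63b had -0.10. Among cytoskeletal genes, Rsph9 and Klc4 were lower, while the tubulin folding cofactor gene Tbcc had -0.45 and -0.25 by its 2 probe sets and Tjap1, of cell junctions, had 0.31. Tomm6, a small subunit of the mitochondrial import pore, could be read only together with Prickle4. Those 2 probe sets gave -0.46 and -0.36.

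**Figure D4:**
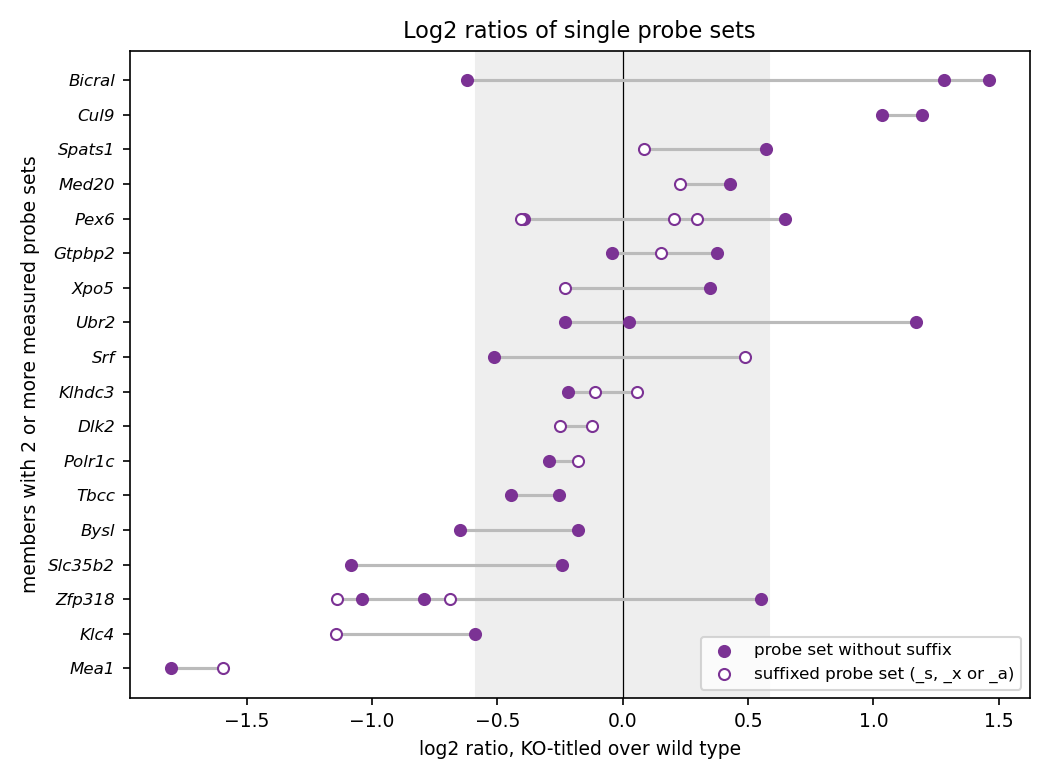
Log2 ratios of every measured probe set of the 18 members with 2 or more, ordered by their median; open circles are suffixed probe sets and the band marks ratios within 1.5-fold. In 10 of the 18 all probe sets had the same sign, and the widest span, 2.08, was that of Bicral.

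Agreement between probe sets decides how far a member's ratio can be read. Among the 18 members with 2 or more measured probe sets, 10 had all of them on the same side of 0 and 8 did not. For the 2 brightest alone, 14 of 18 (77.8%) had the same sign, against 66.6% of 5375 genes. The other 19 measured members rest on 1 probe set each, among them Taf8, Dnph1, Cnpy3, Rsph9 and Aars2. For 15 of the 37 members the brightest probe set carried a suffix.

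Of the 43 members on the array, 5 were below the floor in both pools. Prph2, a structural protein of photoreceptor discs, gave 2.3 and 2 units, and Guca1a, which activates the guanylate cyclase of photoreceptors, 7.2 and 4.8 units. Capn11, a calpain of the testis, gave 4.7 and 11.4 units. Ptk7, a receptor-like protein of Wnt signalling, and the organic anion transporter gene Slc22a7 were also below the floor on both arrays, at 9 and 8.8 and at 45.4 and 37.6 units. No ratio is given for these 5 genes. Crip3 was above the floor only in the KO-titled pool, at 85.9 against 18.9 units, at least 1.33-fold higher. Tcte1 and Spats1, both named for the testis, were measured, with ratios of 0.15 and 0.085, as was Mea1 at 1924.3 and 555.7 units. Gnmt itself gave 10 and 21.5 units, below the floor on both arrays, so it could not serve to check the sample titles.

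RefSeq lists 95 genes from the first to the last member, of which 20 besides the members and Gnmt were on the array and 12 were measured. Their median log2 ratio was -0.39, with 1 gene higher by 1.5-fold or more and 5 lower, against 12.5% and 18.3% of all genes. This was below the -0.11 of the members, but by second brightest probe sets, which 3 of these genes had, the median was -0.18 for them and -0.21 for the members. The lowest were 2310039H08Rik (-1.13, 481.6 and 221.5 units), Rpl7l1 (-0.89, 924.6 and 503.2 units) and the noncoding BE949265 (-0.80, 113.4 and 65.6 units). The highest were Cul7, Mrps10 (0.53, 695.4 and 1010.5 units) and Tmem151b (-0.0020, 1408.3 and 1418 units). The pair 2310039H08Rik and Rpl7l1 lies between Cnpy3, which was also lower, and Bicral, which was higher. Members and these genes together gave 5 higher and 14 lower of 49, or 38.8% apart, against 30.7% of all genes.

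Just outside the interval, the shares of genes 1.5-fold apart were close to the 35.1% of the members. Of the next 25 measured genes below it, 8 were 1.5-fold apart or more (32.0%), 2 of them higher, and the median was 0.026. Of the 25 above it, 9 were as far apart (36.0%), 2 of them higher, and the median was -0.29. At 2-fold the counts were 6 and 4 of 25, against 8 of 37 members. Across the 20 chromosomes other than Y, medians ran from -0.13 on X to -0.018 on 9, and the -0.11 of chromosome 17 was the second lowest.

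Markers of several cell types differed between the pools as well. Their counts stand beside 12.5% of all measured genes at least 1.5-fold higher and 18.3% at least 1.5-fold lower. The 7 cortical neuron markers on the array were at or above the floor in both pools, with a summed signal of 80046 units in the wild-type and 76581 in the KO-titled pool; Neurod6 was lower at -1.61, Tbr1 higher at 1.06 and the other 5 within 1.5-fold. Of 5 astrocyte markers, 4 were at least 1.5-fold lower in the KO-titled pool and 0 higher (16316 and 8963 units summed). Of 6 microglia markers, 4 were lower and 1 higher (11070 and 9906 units). Most of both sums was Csf1r, within 1.5-fold at 6389.8 and 7830.1 units. Of 3 oligodendrocyte markers, Mobp was lower at -0.76 and 2 lay within 1.5-fold (42068 and 37799 units). Both endothelium markers measured, of 4 on the array, lay within 1.5-fold (1222 and 1392 units for the 4). The 5 pituitary markers on the array summed to 31151 and 683.2 units, most of it Gh at 23223 and 200 units. Of the others, Pomc was lower at -3.00, Prl and Cga were below the floor in the KO-titled pool, and Tshb lay within 1.5-fold at -0.31. The part of these differences in the ratios of Mea1, Cnpy3 and the other members was not tested. No marker of photoreceptors (3 on the array) or testis germ cells (5) reached the floor in both pools. In wild type alone, 1 photoreceptor and 2 germ cell markers reached it. They were Nrl (71 and 60.7 units), Prm1 (138.6 and 55.2 units) and Prm2 (73.1 and 46.3 units).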

How the data were processed

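The authors deposited 1 table of linear intensity values, 45101 probe set signals for each of 2 arrays; GCOS, Affymetrix's array software, appears in the submitters' processing notes, with version and algorithm not given in the sources used here. The deposited intensities had a mean of 500.0 on both arrays after trimming 2% at either end, so they had been scaled, while medians were 92.0 and 124.9 units. Samples were grouped by title. Control probe sets (64) were left out. Of the other 45037, 34945 had 1 gene symbol in the platform annotation, 932 several and 9160 none; 34741 took a current symbol from RefSeq GRCm38.p6, which was otherwise used for gene order and promoter windows only, since the annotation names no build. The floor was the 40th percentile of non-control signals, and 23928 probe sets reached it on both arrays. The log2 ratio was centred on their median, 0.012. A signal on 1 side of the floor gave a lower bound against the floor.

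Members, role groups and marker lists were chosen with earlier results of these data known. All members and the 3 highest and 3 lowest other genes of the interval are named. With 1 array a group there is no p-value, and precision is limited by the number of arrays. The steps were tested on simulated data with known shifts. The alternatives were floors at the 25th and 60th percentiles or none (signals under 1 set to 1), no centring, quantile normalization, loess (fraction 0.3), the median or second brightest probe set, and leaving out suffixed probe sets. Python 3.11.15, numpy 2.4.6, pandas 2.3.3, statsmodels 0.14.6 and matplotlib 3.10.9 were used.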

Additional observations from a re-analysis of the deposited data

How the results depend on the processing

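Of 297 values of single members under the 9 alternatives, 289 moved by less than the probe set error, 8 moved by more and 0 of the 1.5-fold calls changed sign. All 8 came from the median or second brightest probe set or from leaving out suffixed ones. The other alternatives mostly kept a gene's probe set, so the 289 say little about agreement between probe sets. Changes of sign in members within 1.5-fold were not counted. By second brightest probe sets, Srf, Pex6 and Xpo5 were among those that changed sign. Ubr2 had 0.026 by the median or second brightest probe set, and Slc35b2 and Bysl had -0.24 and -0.18 by the second brightest. Klc4 was just inside 1.5-fold with a floor at the 60th percentile (-0.53), without centring (-0.58) and with loess (-0.55). By second brightest probe sets only 18 members had a value, of which 2 were higher, 3 lower and 4 at least 2-fold apart, against 19.4%, 19.1% and 17.3% of all genes. With a floor at the 60th percentile, 29 members were left, 2 of them higher and 4 at least 2-fold apart, against 13.0% and 8.26% of all genes. With quantile normalization 5 were 2-fold apart, against 10.7% of all genes, and the median of the inner members was 0.052. With the median over probe sets 5 were 2-fold apart, against 9.64% of all genes. Without suffixed probe sets the median of all members was -0.28 and that of inner members -0.43. The cause was not tested. The higher floor and the second probe sets also left fewer genes, and the part of this was not tested either. No paired analysis was possible because each group has 1 array. For the same reason no array could be left out. Signals near the floor, such as those of Cul9, Taf8, Dnph1 and Spats1, limit what can be read from low genes.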
